A study of Mus musculus with 2 samples.

Results

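The subject is a stretch of mouse chromosome 4 (mm9, 100000001 to 110000000) in which CTCF peaks of neural precursor cells (NPC) outnumbered those of embryonic stem cells (ESC). Its members are the 559 peaks, of 105572 in both lists, whose centre lies in that stretch: 239 of 54151 ESC peaks and 320 of 51421 NPC peaks. CTCF was profiled by chromatin immunoprecipitation and sequencing in 1 library of each cell type, with the same antibody. The ESC were E14Tg2A cells (IB10), a mouse line, kept in BRL-conditioned medium with serum and leukemia inhibitory factor. The NPC were derived from E14 ESC and grown on gelatin in N2-supplemented medium with basic FGF and EGF. The labels give no genetic change and no marker expression for either culture, and peak lists cannot check the cell type. The stretch was chosen by its high share of NPC peaks without an ESC peak, so the shares and score percentiles below come from the contrast that chose it, and none was tested. With 1 library per cell type there is no replicate error: intervals cover counting error over peaks only, and a difference may belong to the cultures or libraries rather than to the cell types.

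CTCF is a DNA-binding protein with a row of zinc fingers that recognises a long, directional sequence motif. It halts the cohesin ring as it extrudes chromatin, so that pairs of CTCF sites facing each other often anchor loops and mark the borders of topological domains. Most CTCF sites are occupied in many cell types, and a minority are gained or lost during differentiation, in part where DNA methylation at the motif changes. The series asks how the direction of CTCF sites relates to looping, and its peak lists record where CTCF was bound in each cell type. Genes of reelin signalling in neurons, Dab1 (an adaptor protein) and Lrp8 (a receptor), lie on chromosome 4, but no gene positions on mm9 were used here and no peak was assigned to a gene.

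Most sites of the stretch were occupied in both cell types, but the unshared ones lay mainly on the NPC side. Peaks of the lists that had at least 1 bp in common were called shared, and the others NPC-only or ESC-only. Of the 320 NPC peaks, 197 were shared and 123 had no ESC peak (38.4%, exact 95% interval 33.1 to 44.0), where 21.4% of the whole NPC list had none. Of the 239 ESC peaks, 196 were shared and 43 had no NPC peak (18.0%, 13.3 to 23.5), where 26.0% of the whole ESC list had none. The stretch therefore held 1.34 NPC peaks for each ESC peak and 2.86 NPC-only peaks for each ESC-only peak. Over all peaks outside it these ratios were 0.948 and 0.773, so both lay on the other side of 1.

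The scores of the peaks alone would give other shares. The score is the number that the authors' peak caller attached to each peak; its definition is not stated, and weak peaks are less often shared in either list. Each list was divided into 10 score bins of equal size, and the unshared share of peaks outside the stretch in the same bin was taken as the expectation. For the NPC peaks this expected share was 22.0%, or 70.4 peaks against the 123 found. For the ESC peaks it was 29.1%, or 69.6 peaks against the 43 found. The NPC interval lies wholly above its expectation and the ESC interval wholly below it. The stretch was chosen for its NPC-only share, and the intervals treat peaks as independent, so this is a description and not a test. The same holds for the intervals by score bin and by window below. Peaks of the stretch ranked slightly low in their lists, with a median percentile of 44.4 in ESC and 47.2 in NPC, where 50 is the middle of the list and 100 its top.

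The excess of NPC-only peaks ran through nearly the whole range of scores. In the lowest NPC bin 34 of 38 peaks were unshared (89.5%, 75.2 to 97.1), against 54.1% of the peaks of that bin elsewhere. In the fifth bin it was 13 of 34 (38.2%, 22.2 to 56.4) against 20.5%, and in the ninth 3 of 26 (11.5%, 2.45 to 30.2) against 1.31%. The share in the stretch was above that elsewhere in 9 of 10 bins, with an interval wholly above it in 7. The exception was the top bin, where none of 47 NPC peaks was unshared, with an interval up to 7.55%. Elsewhere only 0.353% of the peaks of that bin were unshared, so none among 47 says little. The ESC list showed the opposite order less firmly, below the share elsewhere in 9 of 10 bins but with an interval wholly below it in only 2, with 11 of 31 unshared in the lowest bin (35.5%, 19.2 to 54.6) against 67.0%. Its exception was the eighth bin, where 1 of 25 peaks was unshared (4%) against 2.76%. In the 2 highest ESC bins 0 of 21 and 0 of 16 peaks were unshared, against 1.17% and 0.537% elsewhere. With so few peaks a share below was likely there in any case, so these bins add little to the count of 9. In the upper 50% of each list by score, 18 of 151 NPC peaks were unshared (11.9%, 7.22 to 18.2; 5.01% in the whole list), but only 1 of 107 ESC peaks (0.935%, 0.0237 to 5.10; 4.96% in the whole list).

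**Figure D1:**
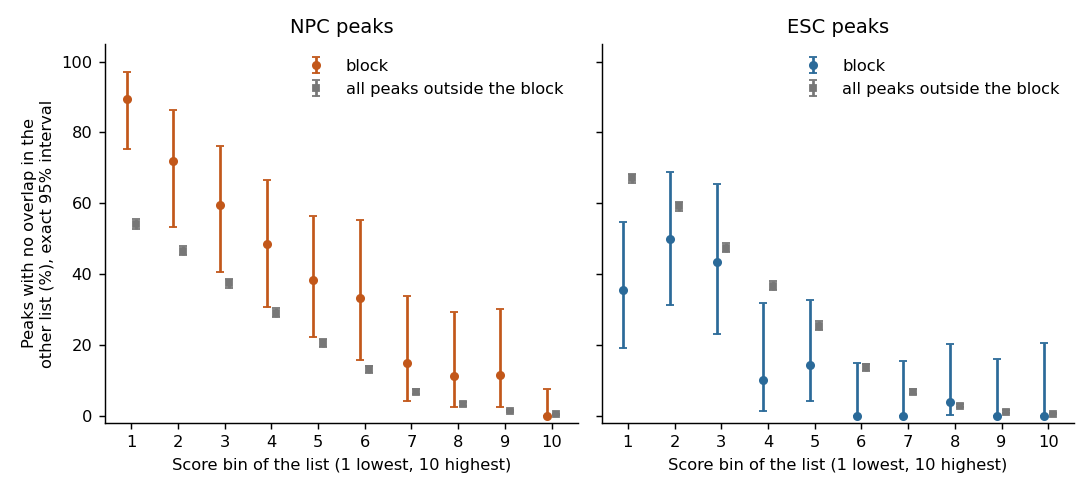
Share of peaks without an overlap in the other list (y axis, %) by score bin of the list (x axis), for NPC peaks (left) and ESC peaks (right). Coloured circles are peaks of the 10 Mb stretch, grey squares all peaks outside it, and bars are exact 95% intervals. NPC circles lie above the squares in 9 of 10 bins and ESC circles below them in 9 of 10. In the highest ESC bins the squares lie close to the bottom, so a circle below them there says little.

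Most NPC-only peaks were weak, and a few were not. The 123 scores had a median of 168 (quartiles 123 and 281), and that of NPC-only peaks elsewhere was also 168. Only 18 of them (14.6%) exceeded the middle score of the NPC list, near the 11.7% of NPC-only peaks elsewhere. The strongest lay at chr4:103364335-103364798, 464 bp wide, with a score of 1363 (rank 5441 of the list, percentile 89.4) and no ESC peak within 9848 bp. The next was an 836 bp peak at chr4:104040967-104041802 with a score of 1088, and it lay 1050 bp from an ESC peak. The third, at chr4:107158373-107158900, scored 1044 and lay 2234 bp from an ESC peak. The second and the third thus had a site called in ESC close by.

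The other strong NPC-only peaks lay at widely different distances from an ESC peak. The fourth, at chr4:106478519-106479017, scored 858 and lay 1680 bp away. The fifth, at chr4:103529681-103530221 with a score of 828, had none within 154438 bp, the longest such distance of any NPC-only peak in the stretch. The sixth, at chr4:100870902-100871400, scored 800 and lay 29707 bp away. The seventh (chr4:101760804-101761173, score 647) and the eighth (chr4:104243032-104243615, score 592) lay 89161 bp and 55250 bp away. The ninth (chr4:107529908-107530349, score 547) and the tenth (chr4:106797526-106798097, score 541) lay 11741 bp and 3346 bp away. Over all 123 the median distance to an ESC peak was 14826 bp (11741 to 19993), against 11042 bp (10674 to 11431) for NPC-only peaks elsewhere, and 5 of them (4.07%) lay within 1 kb of an ESC peak against 7.72% elsewhere. The share more than 50 kb away was about the same, 14.6% in the stretch and 14.4% elsewhere.

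ESC-only peaks of the stretch were few and weak. Their median score was 154 (139 to 206), and that of ESC-only peaks elsewhere was 193 (190 to 196). The strongest, at chr4:102757720-102758356, scored 935 (percentile 70.9) and was 41713 bp from an NPC peak. It was the only one in the upper part of the ESC list; the second, at chr4:100998531-100999092, scored 437 (percentile 44.8). The following 3, at chr4:101178855-101179413, chr4:106001585-106002331 and chr4:104974223-104974746, scored 392, 388 and 379. None of the 43 belonged to a run of 3 or more neighbouring ESC-only peaks, where 24.5% of all ESC-only peaks did; a lower unshared share shortens runs by itself.

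NPC-only peaks often came in runs. Of the 123, 45 (36.6%, 28.1 to 45.8) were in a run of 3 or more neighbouring NPC-only peaks, against 20.4% of the whole class. The flanks had such runs too, with 18 of 36 NPC-only peaks on the left (50.0%, 32.9 to 67.1) and 33 of 98 on the right (33.7%, 24.4 to 43.9). A higher unshared share lengthens runs by itself. The longest run held 9 NPC-only peaks over 151 kb (chr4:107158373-107308946), with scores up to 1044 and no ESC peak centre between its ends. Only 4 runs in the whole NPC list were as long or longer. A second run held 8 peaks over 453 kb (chr4:103424053-103876985), with scores from 106 to 828 and no ESC peak centre; 7 runs of the list reached 8 peaks. That second run covers most of the window from 103.5 to 104 Mb, where 6 of 7 NPC peaks were unshared and the ESC list had 1 peak.

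In steps of 500 kb, the windows of the stretch had one direction. All 20 windows held more NPC-only peaks than their scores gave, whereas 43.7% of windows outside the stretch did. With the windows moved by 250 kb 78.9% did, and with windows of 250 kb 82.5%. The share outside the stretch was taken for the main windows only, so these values have no base of their own. The NPC-only share of the 20 main windows ran from 20.0% to 85.7% with a median of 38.5%. In 6 of them its interval lay wholly above the expected share, as in 2 windows of the right flank and in none of the left. Windows of the left flank held a median of 6 NPC peaks, against 15 in the stretch and 16.5 in the right flank. Fewer peaks give wider intervals, and windows with such an interval were not counted further away. The narrowest margins were at the right end, from 109.5 to 110 Mb, with 3 NPC-only peaks against 2.92 expected, and from 101.5 to 102 Mb, with 2 against 1.67. ESC-only peaks were fewer than expected in 18 of 20 windows (56.3% outside), and 3 windows held none. The exceptions were 108 to 108.5 Mb, with 6 ESC-only peaks against 4.92 expected, and 108.5 to 109 Mb, with 3 against 2.60. NPC peaks outnumbered ESC peaks in 19 windows, and only from 108 to 108.5 Mb did the ESC list hold more, with 14 peaks against 12. In the right flank they did so in 12 of 20 windows, with equal counts in 2. In the left flank it was 7 of 20, with equal counts in 10. These last counts were not made over the other windows of the genome.

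The windows with most NPC-only peaks lay side by side from 106.5 to 108 Mb. From 107 to 107.5 Mb, 15 of 32 NPC peaks were unshared (46.9%, 29.1 to 65.3; 7.55 expected), while 2 of 19 ESC peaks were. From 107.5 to 108 Mb it was 11 of 21 (52.4%, 29.8 to 74.3; 5.52 expected) and from 106.5 to 107 Mb 9 of 18 (50.0%, 26.0 to 74.0; 3.64 expected). These peaks were mostly weak: 2, 2 and 1 of them exceeded the middle score of the NPC list. The windows were picked for their counts. The neighbouring window from 106 to 106.5 Mb also held 32 NPC peaks, of which 7 were unshared (21.9%, 9.28 to 40.0; 5.74 expected).

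**Figure D2:**
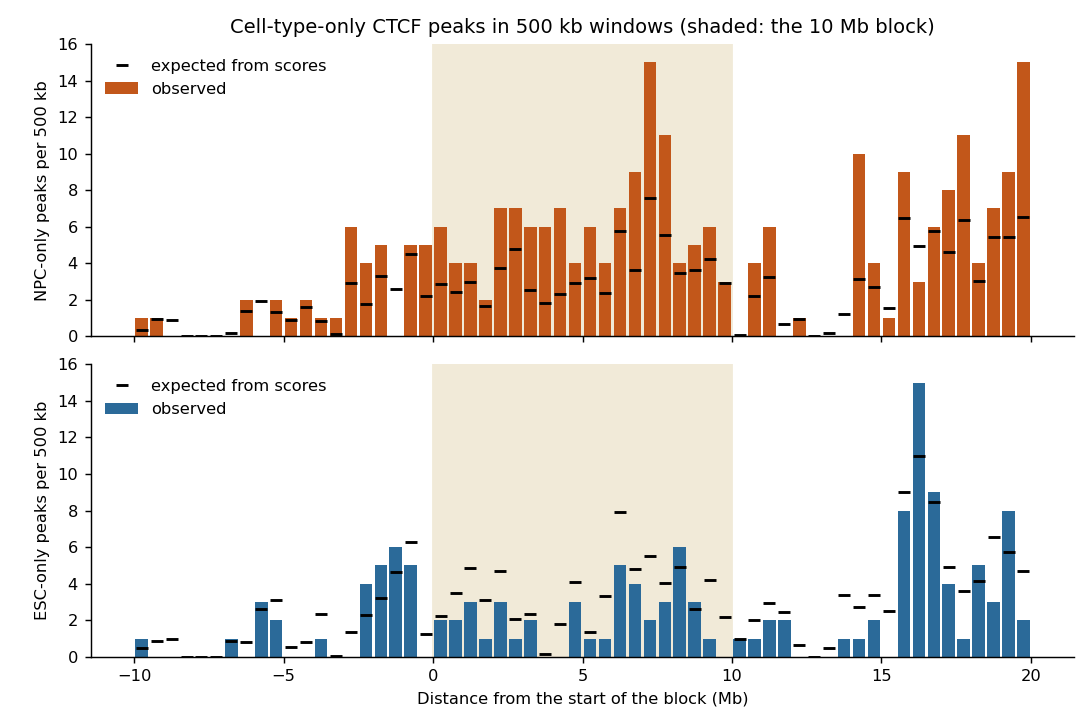
Number of NPC-only peaks (top) and ESC-only peaks (bottom) in each 500 kb window (y axes) against the distance from the start of the stretch in Mb (x axis), over the stretch (shaded) and 10 Mb to either side. Bars are observed counts and dashes the counts expected from scores; every shaded NPC bar rises above its dash, and bars above dashes go on to the right of the shading.

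Sites called in both lists were shifted in the same direction. There were 195 pairs in which 1 ESC peak and 1 NPC peak overlapped only each other, and each peak was placed by its score percentile within its own list. The median percentile of these pairs was 54.4 (46.6 to 58.7) in ESC and 68.1 (62.1 to 73.3) in NPC, against 61.8 and 59.4 at the 39400 pairs elsewhere. The median difference per pair, NPC minus ESC, was 10.4 points (7.93 to 14.5), against -1.25 points (-1.48 to -1.02) elsewhere. The percentile was higher in NPC at 150 of 195 pairs (76.9%, 70.4 to 82.6), where 47.1% of all pairs were. Shifts of more than 25 points were also lopsided: 56 pairs (28.7%) were that much higher in NPC and 12 (6.15%) that much lower, against 11.9% and 16.4% of all pairs.

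The shift was seen at sites of low, middle and high ESC score, though its size was less clear at weak ones. The ESC list was divided into 3 equal parts by score. Among pairs of the lowest part the NPC percentile had a median of 38.7 (30.7 to 47.4), against 32.8 elsewhere, a value inside that interval. In the middle part it was 67.4 (59.6 to 72.9) against 50.1, and in the top part 90.3 (85.1 to 95.1) against 78.3, both outside. The share of pairs higher in NPC exceeded that elsewhere in each part: 47 of 53 (88.7% against 73.0%) in the lowest, 62 of 76 (81.6% against 48.1%) in the middle and 41 of 66 (62.1% against 34.3%) in the top part. Relative to pairs elsewhere in the same ESC score bin, NPC percentiles were 10.5 points higher (8.20 to 13.4), and relative to the same NPC bin, ESC percentiles were 13.9 points lower (median -13.9, -17.9 to -9.91). In 19 of 20 windows the median difference was positive (41.4% outside), the exception being 102.5 to 103 Mb at -2.45 points over 10 pairs.

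Individual pairs show the range. The largest shift was at chr4:106793662-106794314, with a percentile of 15.3 in ESC (score 160) and 84.9 in NPC (score 1168). At chr4:100840550-100841217 it was 28.6 in ESC (score 250) and 98.0 in NPC (score 2197). The next 3 lay at chr4:106986265-106986727, chr4:106166144-106166742 and chr4:106205855-106206501, with NPC scores of 767, 972 and 914 and differences of 63.4, 62.9 and 59.2 points. So 4 of these 5 pairs, chosen for their shift, lay between 106 and 107 Mb. The ESC peak of the first is the one that lay 3346 bp from the NPC-only peak at chr4:106797526-106798097.

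A minority of sites went the other way. The most negative difference was at chr4:108659461-108659785, with a percentile of 85.7 in ESC (score 1340) and 31.8 in NPC (score 223). It was followed by chr4:108294188-108294600 (79.8 in ESC, 28.6 in NPC) and chr4:108600608-108600910 (66.6 and 17). The last of the 5 most negative were chr4:102865047-102865453 (54.1 and 16.0) and chr4:107992358-107992835 (75.0 and 39.2). Of these 5, chosen for their values, 3 lay between 108 and 109 Mb, in the windows where ESC-only peaks exceeded their expectation. The pairs that ranked best in both lists were by that choice at similar percentiles. The pair at chr4:106836433-106837092 scored 3100 in both, a value at which scores pile up in these lists, and the pairs at chr4:107126102-107126736 (scores 2387 in ESC and 2770 in NPC) and chr4:106202213-106203084 (2118 and 3100) were at percentile 97.5 or above in either list.

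**Figure D3:**
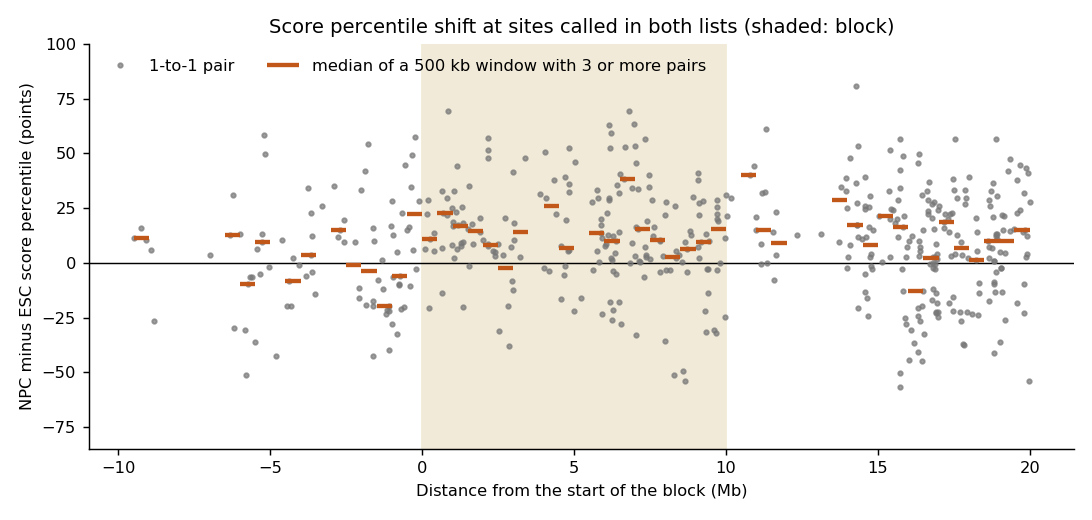
NPC minus ESC score percentile (y axis, points) of each 1-to-1 pair (grey points) against the distance from the start of the stretch in Mb (x axis), with the median of each 500 kb window holding 3 or more pairs (coloured bars). In the shaded stretch 150 of 195 points lie above 0, and medians stay mostly above 0 to its right.

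Peak widths moved with the scores. At the 195 pairs the NPC peak was 0.855 times as wide as the ESC peak (0.822 to 0.891, median), against 0.761 (0.759 to 0.763) elsewhere; the NPC peak was narrower in general. The centres of a pair were a median of 30 bp apart (26 to 37), against 32 bp elsewhere. The median width of all NPC peaks in the stretch was 437 bp (415 to 461), near the 433 bp of peaks elsewhere, and that of ESC peaks was 563 bp (539 to 587) against 573 bp. Neighbouring peak centres were a median of 17579 bp apart in NPC (15074 to 20881) and 21908 bp in ESC (16842 to 27795). Elsewhere they were 19579 bp apart in NPC and 17929 bp in ESC, values inside these intervals.

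The peaks nearest to the limits of the stretch were as follows. Just outside the left limit lay an unshared NPC peak (chr4:99915067-99915336, score 201) and a shared ESC peak (chr4:99886789-99887392, score 706). Just inside it the first NPC peak was unshared (chr4:100030431-100030844, score 267) and the first ESC peak shared (chr4:100079946-100080765, score 1537). At the right limit all 4 peaks on either side were shared: the last inside at chr4:109996438-109996978 in NPC (score 602) and chr4:109996454-109996929 in ESC (score 292), and the first outside at chr4:110024337-110024843 in NPC (score 727) and chr4:110024347-110024961 in ESC (score 495).

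The left flank, from 90 to 100 Mb, was sparse, and both expected shares lay inside its intervals. It held 115 ESC peaks and 124 NPC peaks, of which 28 (24.3%, 16.8 to 33.2; 28.1% expected) and 36 (29.0%, 21.2 to 37.9; 22.5% expected) were unshared. The percentile was higher in NPC at 45 of 86 pairs (52.3%, 41.3 to 63.2), and the median difference of 2.87 points had an interval from -6.49 to 9.97. Relative to pairs outside the stretch in the same NPC score bin, ESC percentiles were lower (median -8.86 points, -12.9 to -2.55). Relative to the same ESC bin, NPC percentiles differed by a median of 0.39 points (-7.37 to 7.95). Its NPC-only share was still 6.57 points above the expectation, rank 24 of the 212 segments of 10 Mb with at least 100 NPC peaks, and 13 of its 17 windows with NPC peaks (76.5%) exceeded theirs. The last windows of this flank differed from each other. From 98.5 to 99 Mb none of 9 NPC peaks was unshared, 6 of 15 ESC peaks were, and the median pair difference was -19.9 points. From 99.5 to 100 Mb 5 of 13 NPC peaks were unshared (2.21 expected), none of 8 ESC peaks was, and the median difference was 22.3 points.

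The right flank, from 110 to 120 Mb, resembled the stretch itself. Of its 323 NPC peaks 98 were unshared (30.3%, 25.4 to 35.7; 20.0% expected), and of its 288 ESC peaks 65 (22.6%, 17.9 to 27.8; 27.7% expected, inside the interval). The percentile was higher in NPC at 151 of 219 pairs (68.9%, 62.4 to 75.0), with a median difference of 11.8 points (6.60 to 14.8), and the NPC peak of a pair was 0.862 times as wide as the ESC peak. The NPC-only share in the stretch and in this flank had overlapping intervals. The flank was less even than the stretch: 13 of 19 windows with NPC peaks (68.4%) exceeded their expectation, and from 116 to 116.5 Mb it went the other way, with 3 of 24 NPC peaks and 15 of 35 ESC peaks unshared and a median pair difference of -12.7 points. From 112 to 113.5 Mb there were only 3 NPC and 2 ESC peaks, a gap that divides the flank. Beyond it, from 119.5 to 120 Mb, 15 of 32 NPC peaks were unshared, the same counts as in the leading window of the stretch.

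Edges were sought by a fixed rule, the contiguous windows between 90 and 120 Mb with the largest sum of observed minus expected NPC-only peaks. This gave 94.5 to 120 Mb, with 253 NPC-only peaks against 157 expected, so that it ran into the right end of the range searched. A stricter rule, added after seeing the data, took the run of NPC peaks best fitting odds of being unshared 2 times those expected. On simulated lists with a planted stretch it came closer to the planted right edge than the summed excess over single peaks. The planted contrast was stronger than that of the data and did not depend on score, and sums over windows were not simulated. How close either rule came to an edge in these data was therefore not tested. Over the whole of chromosome 4 the stricter rule gave 96.4 to 122.6 Mb. No rule placed an edge near 110 Mb. The left edge was less well placed: within 90 to 120 Mb the rules put it between 90.5 and 96.5 Mb, and the windows from there to 99.5 Mb lay on both sides of their expectation.

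The running sum along chromosome 4 rose through the stretch and past its right limit. From the start of the chromosome to 100 Mb the observed minus expected count of NPC-only peaks summed to -0.422. That net value includes a rise before the stretch, with 8.14 peaks above expectation in the left flank alone. Over the whole chromosome the run of windows with the largest sum began at 80.5 Mb. The running sum reached 52.2 at 110 Mb and 91.7 at 121 Mb, turned at 124.4 Mb with 95.2 and fell to 28.8 at the end. For ESC-only peaks the sum was -31.7 at 100 Mb, -58.3 at 110 Mb and -76.8 at 121 Mb, turned at 122.9 Mb and rose to 11.7 at the end. With limits read from the windows after the data were seen, 99.5 to 121 Mb, 242 of 703 NPC peaks (34.4%, 30.9 to 38.1; 20.9% expected) and 112 of 570 ESC peaks (19.6%, 16.5 to 23.1; 27.8% expected) were unshared. In that span the percentile was higher in NPC at 330 of 453 pairs (72.8%, 68.5 to 76.9). From 121 to 130 Mb the excess of NPC-only peaks was absent from the total: 59 of 297 NPC peaks were NPC-only (19.9%, 15.5 to 24.9; 22.5% expected, inside the interval), 110 of 348 ESC peaks were ESC-only (31.6%, 26.8 to 36.8; the expected share lay below the interval), and the percentile was higher in NPC at 91 of 238 pairs (38.2%, 32.0 to 44.7).

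**Figure D4:**
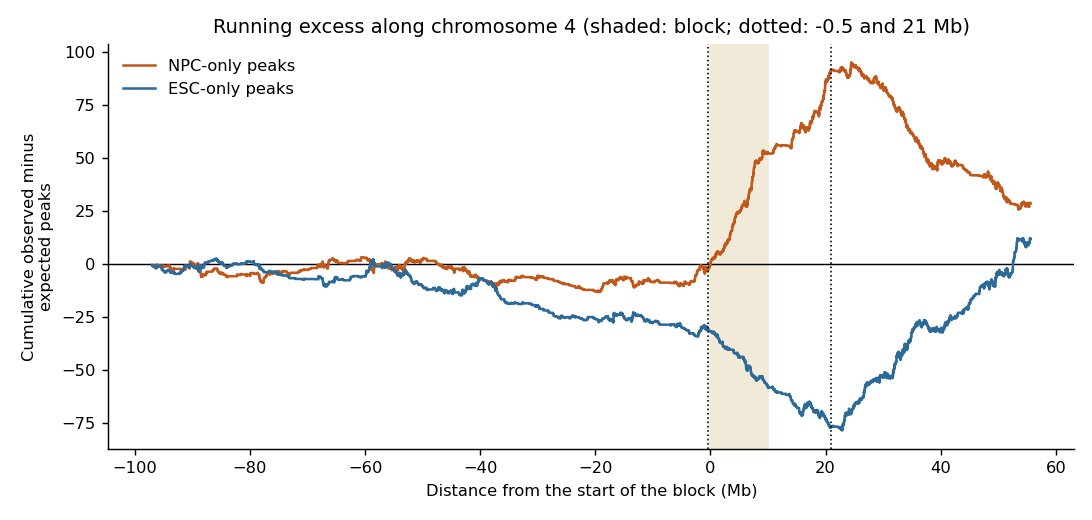
Running sum of observed minus expected unshared peaks (y axis, peaks) along the whole of chromosome 4, by distance from the start of the stretch in Mb (x axis), for NPC-only and ESC-only peaks. The NPC line is low at the left limit of the shaded stretch, although it gains over the left flank. It climbs through the stretch and on past 21 Mb (dotted), then falls. The ESC line already falls before the stretch, falls through it, and rises after the dotted line on the right.

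Among segments of 10 Mb with at least 100 NPC peaks, the stretch had the second highest NPC-only share of 212. Only chromosome 15 from 60 to 70 Mb was higher, with 68 of 160 NPC peaks unshared (42.5%, 34.7 to 50.5), and both intervals overlapped. The other 211 segments had a median of 21.7%. The order was the same after the expected share was subtracted, 16.4 points in the stretch and 21.3 on chromosome 15, where the other segments had a median of 0.298 points. By the median pair difference the stretch ranked 5 of 212 and its right flank 3. The segments with the next highest NPC-only shares outside chromosomes 4 and 15 lacked that shift: on chromosome 14 from 110 to 120 Mb the share was 35.2% (26.2 to 45.0; 25.9% expected) but the median pair difference -0.671 points (-13.1 to 8.17), and on chromosome 6 from 100 to 110 Mb the share was 33.6% (25.01 to 43.1; 23.9% expected) and the difference -0.889 points (-6.55 to 6.83).

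Chromosome 15 as a whole was shifted in the same direction. On that chromosome 30.3% of NPC peaks lacked an ESC peak (28.6 to 32.1; 20.3% expected) and 15.9% of ESC peaks lacked an NPC peak (14.4 to 17.5; 25.8% expected). The NPC-only interval lay below that of the stretch (33.1 to 44.0), and the excess was 9.98 points against 16.4, whereas the ESC-only intervals overlapped. The stretch was picked for its high NPC-only share and the whole chromosome was not, so a lower value there says little. The right flank of the stretch had an excess of 10.3 points, and chromosome 15 from 60 to 70 Mb one of 21.3 points. Its pairs were higher in NPC at 68.7% (66.5 to 70.8), with a median difference of 8.36 points (7.38 to 9.12), and its NPC peaks were 0.850 times as wide as their ESC partners (0.837 to 0.859). The number of copies of either chromosome in these cultures, and the number of reads behind a peak, were not analysed here, so the part of either in the shares was not tested.

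**Figure D5:**
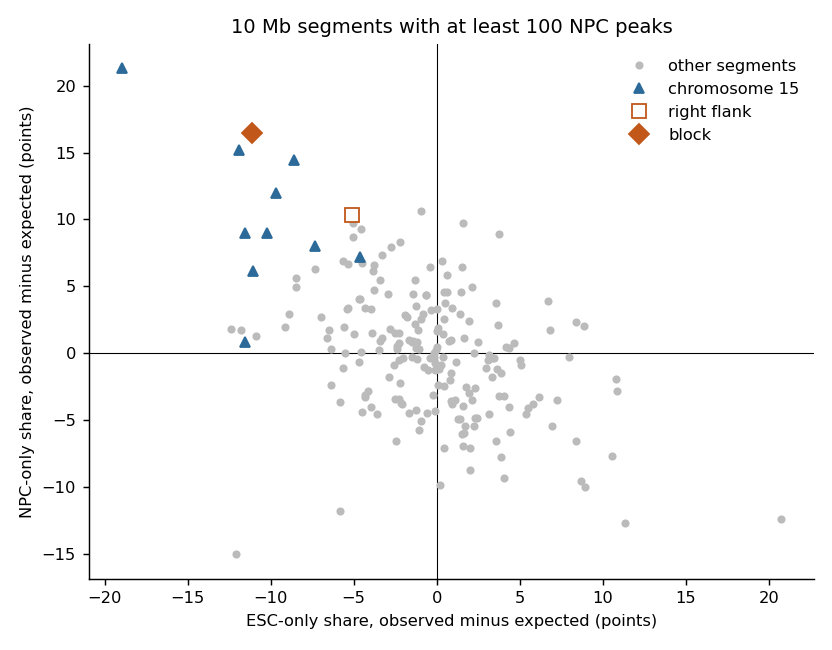
Observed minus expected NPC-only share (y axis, points) against observed minus expected ESC-only share (x axis, points) for the 212 segments of 10 Mb with at least 100 NPC peaks. The stretch (filled diamond, 16.4 and -11.1 points) and its right flank (open square) lie to the upper left with most segments of chromosome 15 (triangles).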

How the data were processed

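CTCF was immunoprecipitated in 1 ESC and 1 NPC library and sequenced on SOLiD, per the labels' protocols. The authors called peaks with MACS on each library, per the file headers; the build is mm9, per the submitters' processing notes. The track names in the headers end in CONTROL, a word whose meaning is not stated; the peaks were taken as CTCF peaks, as the labels and the same track names give them. For the aligner, the MACS version and threshold, and the control: not given in the sources used here. Each deposited value is a score per peak, at least 100.0 in both lists, with 173 ESC and 208 NPC peaks at exactly 3100. Read depth is unknown. Coordinates are printed 1-based.

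Peaks were assigned by centre. Overlaps were computed in Python 3.11.15 (numpy 2.4.6, pandas 2.3.3, scipy 1.17.1; plots with matplotlib 3.10.9), and the counts equalled those of bedtools 2.31.1. Expected shares used 10 score bins and peaks outside the stretch. Share intervals are exact Clopper-Pearson (95%); medians carry order-statistic intervals. Percentiles are ranks within the whole list. The overlap step and the edge rules, run on single peaks, were tested on simulated data.

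The peaks named are the 10 strongest NPC-only and 5 strongest ESC-only, the 5 pairs with the largest and the 5 with the smallest percentile difference, the 3 best pairs in both lists, the 3 windows with most NPC-only peaks, the longest runs and the peaks at the limits; the second run was chosen after its values were seen. The stretch and the rules were chosen with earlier results of these data known. Alternatives were other overlap rules, score parts, bins, references, windows and edge rules. The planned CTCF motif comparison and nearest genes were not made, since neither sequence nor gene positions of mm9 were at hand.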

Additional observations from a re-analysis of the deposited data

How the results depend on the processing

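The direction of the NPC-only excess and of the ESC-only deficit in the stretch held under the 5 alternatives run for each. Over all results, edges, flanks and ranks included, 59 of 87 alternative values lay near the main one. With only the upper 50% of a list by score, set against all peaks of the other, the NPC-only share was 11.9% in the stretch, 13.6% in the left flank and 8.13% in the right flank, and the ESC-only share 0.935%, 4% and 2.80%; unshared peaks are mostly weak, so the level depends on the calling limit. The margin over the expectation also varied with the overlap rule. In the stretch the NPC-only share was 38.4% against 22.0% expected in the main setting. It was 40.3% against 28.9% with 50% reciprocal overlap and 40.9% against 27.3% with centres within 100 bp. With peaks within 1 kb it was 36.9% against 20.3%, and with lists of equal length 40.3% against 23.6%. With 50% reciprocal overlap the left flank had 37.9% against 29.5% expected. Windows of the stretch above their expectation were 82.5% with windows of 250 kb, 78.9% with windows moved by 250 kb and 80.0% with 50% reciprocal overlap, against all of them in the main setting and with windows of 1 Mb, so the uniform direction depends on the window grid and on the overlap rule. In the upper 50% the median width was 551 bp in NPC and 679 bp in ESC, and the median spacing 34904 bp and 63388 bp. By median pair difference the stretch ranked 5 of 212. The start of the excess, 94.5 Mb by the main rule, was 96.5 Mb without matching on score; by rules added after seeing the data it was 96.4 Mb with odds of 2 (from 90 to 120 Mb, over the whole chromosome, and with the upper 50%), 90.5 Mb from ESC-only peaks, and over the whole chromosome 80.5 Mb from NPC-only peaks, 41.5 Mb from pairs and 14 Mb from ESC-only peaks. The end, 120 Mb where the search stopped, was over the whole chromosome 124.5 Mb from NPC-only peaks, 120.9 Mb from pairs, 122.6 Mb (all peaks) and 122.7 Mb (upper 50%) with odds of 2, and 122.5 Mb from ESC-only peaks. The motif settings were not run. With 1 library per cell type none could be left out, and no paired analysis was possible.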
